A study of Homo sapiens with 12 samples.

Results

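The glycolysis and hypoxia genes described here are 41 listed genes, made up of the enzymes and transporters that carry glucose to lactate and of known targets and regulators of the hypoxia-inducible factor HIF-1. They were listed by name, with earlier results of these data known, and were found by matching the Ensembl identifiers of the files to symbols. All 41 are among the 61533 gene entries of each library, and 37 of them are among the 15616 genes with enough counts to be tested. Polyadenylated RNA was sequenced from 4 lines made from HMLE, a human mammary epithelial line immortalised with telomerase and SV40 antigens. The genotype labels read Control, OE_CT83, OE_HORMAD1 and OE_HORMAD_CT83, and the last, with both transgenes, is called the double line here. All 4 lines went through puromycin selection, and no oxygen or glucose treatment is named in the labels. The sources used here name neither the promoter of the transgenes nor whether a line is 1 clone. The design asks what the cancer/testis genes HORMAD1 and CT83 do in these cells, each alone and together.

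Glycolysis splits glucose into pyruvate through a fixed chain of cytosolic enzymes, and lactate dehydrogenase and the monocarboxylate transporters dispose of the pyruvate when it is not burned in mitochondria. HIF-1 is kept low in well-oxygenated cells by prolyl hydroxylases, which mark its alpha subunit for destruction. When oxygen is short the factor builds up and induces most of the glycolytic chain, together with genes for vessel growth, pH control, collagen modification and mitophagy, by binding short motifs whose core often reads ACGTG.

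Each line had 3 libraries, with 9898845 to 14159740 counts in each. The labels give the replicates numbers but no separate cultures or dates, so every p-value here measures the spread between libraries, which may be technical. The labels name 1 line for each construct, and what a transgene did and how 2 lines differ anyway cannot be told apart. HORMAD1 and CT83 had 0 counts in all libraries labelled without them. HORMAD1 reached 203 to 346.5 CPM (the count of a gene brought to a common library size, with sizes scaled by the trimmed mean of M-values) in its own 2 lines. CT83 reached 400.2 to 724 CPM in the CT83 line and 86.7 to 118 CPM in the double line. Of the markers of basal mammary epithelium 6 of 6 were tested and summed to 5452 to 7339 CPM. The luminal markers, 6 of 7 tested, summed to 4380.5 to 4923 CPM in control, 3604 to 3961 CPM in the CT83 line, 3755 to 4935 CPM in the HORMAD1 line and 3425 to 4023 CPM in the double line, so that the control libraries stood above those of the CT83 and double lines without overlap. KRT19 was at most 1.49 CPM. Endothelial markers summed to at most 1.55 CPM. Of the leukocyte markers, CD68 was at most 1.93 CPM, and PTPRC and CD3E were at 0 in 11 of 12 libraries each. Fibroblast markers summed to 36.7 to 103 CPM, with COL1A1 at 5.40 to 60.5, FAP at 17.1 to 22.5, THY1 at 6.74 to 13.9, COL1A2 at up to 18.9, and DCN, LUM and PDGFRA at 1.41 CPM or less. The part of these markers in the results below was not tested. In bulk libraries, fewer cells with a transcript and less RNA per cell cannot be told apart.

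The start sites of several members carry the ACGTG core, and 5 windows are shown for these reasons: LDHA and PGK1 are the 2 abundant enzymes with the most matches, CA9 varied most between libraries, and ANGPTL4 and ENO2 were the 2 members with an unadjusted p under 0.05 for the interaction of the transgenes. Each window runs from 250 bases before to 50 bases after a RefSeq start site on GRCh38.p14 and is written 5′ to 3′ on the strand of its gene. Capitals mark ACGTG on either strand, so that CACGT is the motif on the other strand and the palindrome CACGTG counts as 2 overlapping matches.
LDHA, chr11:18394313-18394612, plus strand: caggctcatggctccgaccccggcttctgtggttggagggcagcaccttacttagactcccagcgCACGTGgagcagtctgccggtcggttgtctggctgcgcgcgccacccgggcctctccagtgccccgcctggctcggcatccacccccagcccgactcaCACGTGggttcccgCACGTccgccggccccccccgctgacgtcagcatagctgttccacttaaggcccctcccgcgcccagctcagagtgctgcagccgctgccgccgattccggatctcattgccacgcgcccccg
PGK1, chrX:78103998-78104297, plus strand: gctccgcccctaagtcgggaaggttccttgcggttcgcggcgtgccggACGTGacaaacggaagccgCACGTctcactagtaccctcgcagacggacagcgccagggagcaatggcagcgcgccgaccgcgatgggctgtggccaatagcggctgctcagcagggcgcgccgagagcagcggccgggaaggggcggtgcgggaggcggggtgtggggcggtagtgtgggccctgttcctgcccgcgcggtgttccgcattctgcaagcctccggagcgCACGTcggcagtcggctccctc
ENO2, chr12:6914330-6914629, plus strand: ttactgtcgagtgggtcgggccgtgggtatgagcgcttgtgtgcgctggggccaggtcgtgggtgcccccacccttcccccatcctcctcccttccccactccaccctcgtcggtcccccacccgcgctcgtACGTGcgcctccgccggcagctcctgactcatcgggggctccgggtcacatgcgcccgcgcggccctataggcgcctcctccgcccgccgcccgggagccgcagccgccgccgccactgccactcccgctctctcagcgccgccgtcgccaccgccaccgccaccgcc
ANGPTL4, chr19:8363905-8364204, plus strand: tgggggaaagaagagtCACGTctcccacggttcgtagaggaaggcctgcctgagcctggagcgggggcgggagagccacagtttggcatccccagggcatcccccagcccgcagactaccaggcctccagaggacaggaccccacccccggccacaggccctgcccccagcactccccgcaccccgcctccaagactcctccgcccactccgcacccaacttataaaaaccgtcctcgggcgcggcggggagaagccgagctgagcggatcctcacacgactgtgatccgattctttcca
CA9, chr9:35673678-35673977, plus strand: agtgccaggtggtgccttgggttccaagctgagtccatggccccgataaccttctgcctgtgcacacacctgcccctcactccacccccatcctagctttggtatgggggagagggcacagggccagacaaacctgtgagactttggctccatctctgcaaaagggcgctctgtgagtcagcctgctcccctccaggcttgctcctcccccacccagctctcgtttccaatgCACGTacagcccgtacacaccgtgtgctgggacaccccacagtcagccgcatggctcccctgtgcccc
The LDHA window held 5 matches and the PGK1 window 3, against 1 in each of the ENO2, ANGPTL4 and CA9 windows. A second LDHA window held 0, as did the windows of ENO1, PKM and PGAM1, while GAPDH had 2 matches and TPI1 had 0 and 1 in its 2 windows. Windows were counted for 36 of the 41 members, 66 in all, and none was counted for SLC2A3, NDRG1, BNIP3L, SLC16A1 or VEGFA. Member windows on the chromosome of NDRG1 and BNIP3L were left out, so whether RefSeq lists any for them was not tested. The motif was in 29 of the 66 windows (43.9%), belonging to 23 members. Over all 35116 windows, with no chromosome left out, it was in 7518 (21.4%), so the 2 shares cover different chromosomes. A match describes the letters of these windows only.

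Levels of different genes can be compared only per length, here as CPM per kilobase of the principal transcript in GENCODE 29. On that scale the members ran from a median of 2410.5 for GAPDH to 1.17 for EGLN3. GAPDH stood alone at the top, at 2080.1 to 2629 CPM per kilobase, above every library's value for ENO1 (1441 to 1915). ENO1 and PKM (1333 to 1735) overlapped, while the highest LDHA library (978 to 1311) lay just below the lowest PKM library. TPI1 and PGAM1 followed at medians of 924 and 503, and PGK1 at 159. The 37 tested members together held 1.99 to 2.30% of all counts of a library.

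**Figure D1:**
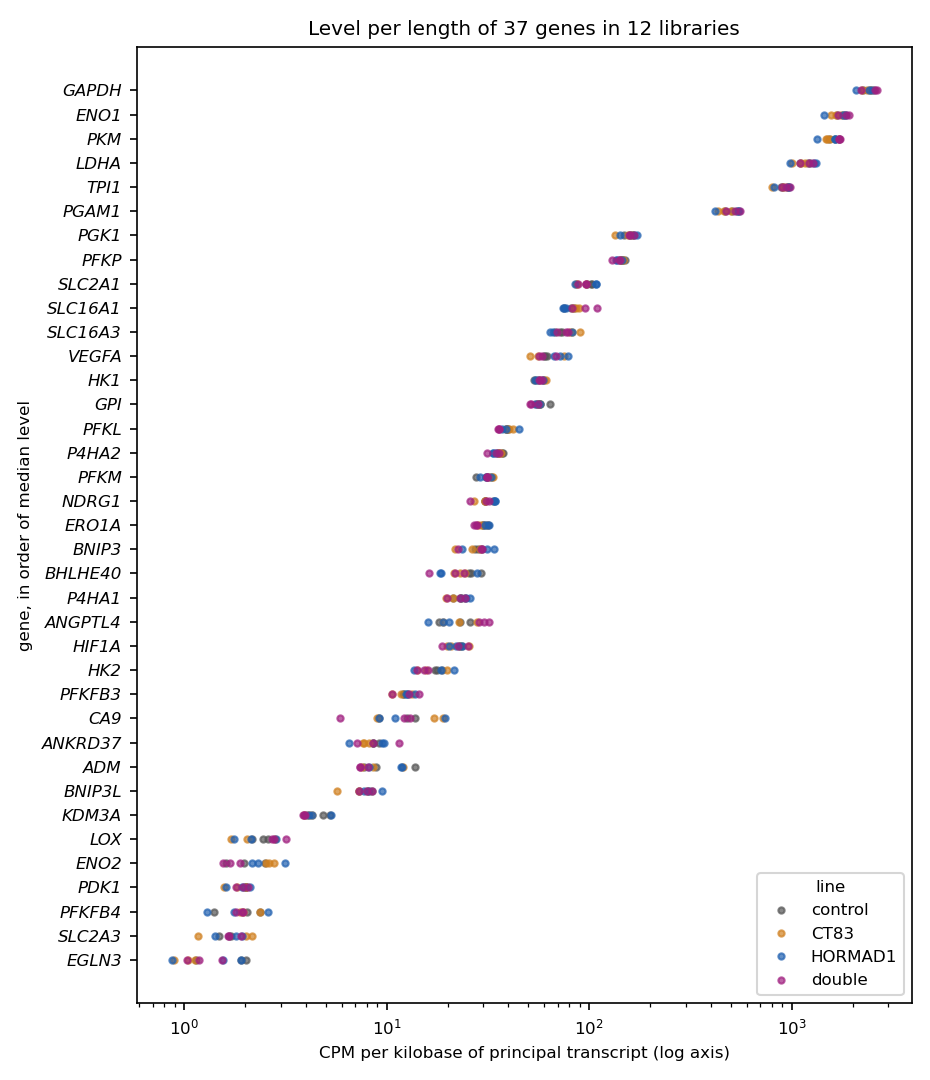
Level of each tested member in the 12 libraries, in CPM per kilobase of principal transcript on a log axis, with 1 point per library coloured by line and genes ordered by median. GAPDH, ENO1, PKM, LDHA, TPI1 and PGAM1 lie highest, from 418 CPM per kilobase upwards, EGLN3 lies lowest at 0.871 to 2.03, and the lines overlap for most genes.

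With the union of all exons as the length, an alternative chosen after seeing the data, the first 11 places kept their order. VEGFA, whose principal transcript is 1199 bases and whose exons together cover 14431, moved from place 12 to 29. The level of a hypoxia target relative to an enzyme therefore depends on the length used, while comparisons of 1 gene between lines do not.

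**Figure D2:**
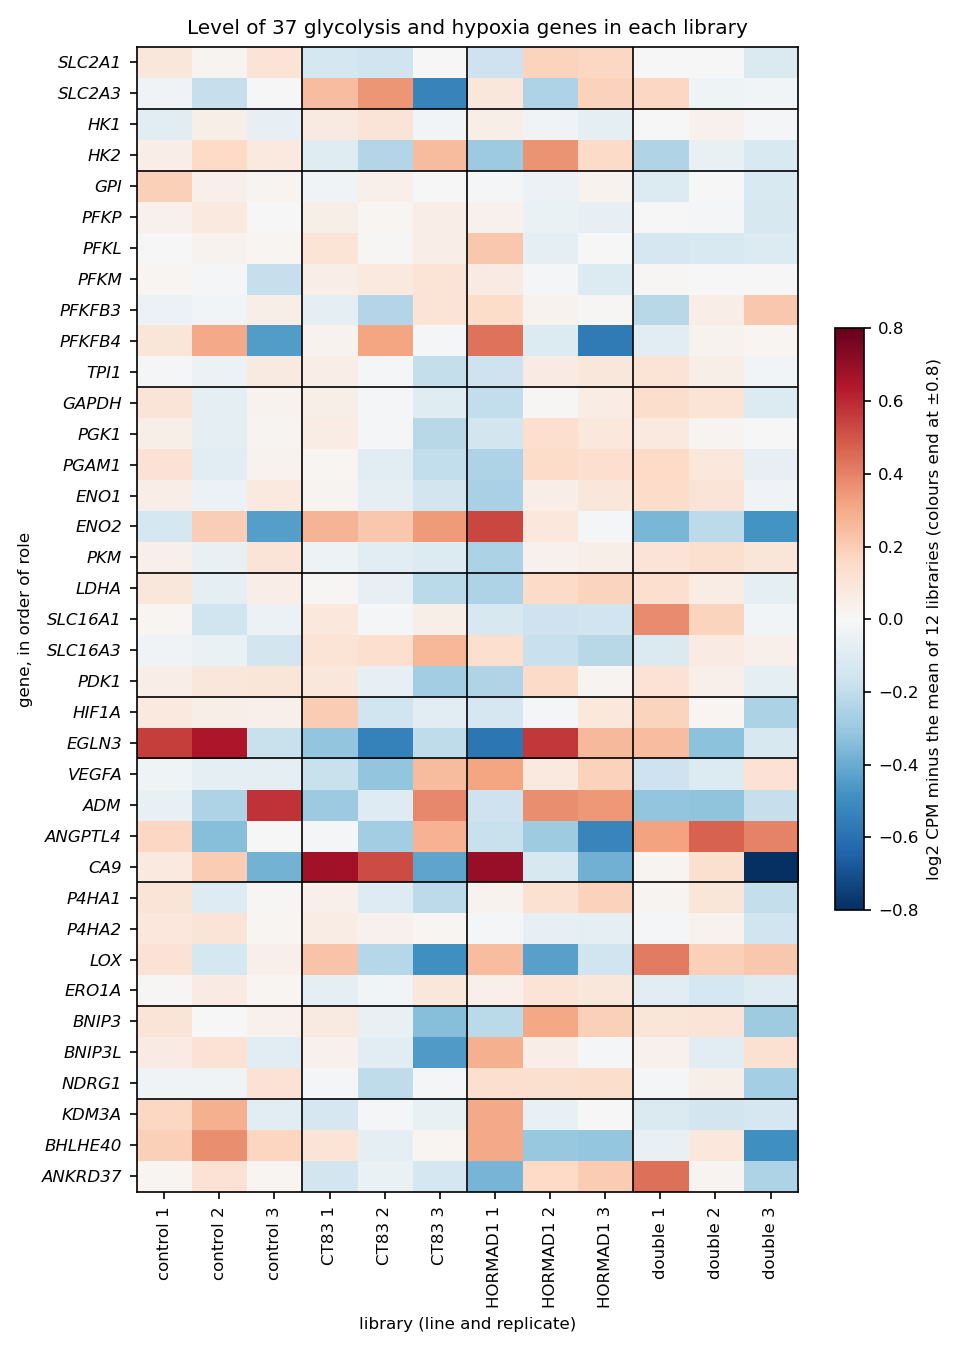
Level of each tested member in each library as log2 CPM minus the mean of the 12 libraries, with genes in order of role and vertical lines between the cell lines. Red is above and blue below that mean, and colours end at 0.8. ANGPTL4 is red in all 3 double libraries, and most abundant enzymes are blue in control 2, CT83 3 and HORMAD1 1.

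Of the 2 glucose transporters, GLUT1 was far more abundant as transcript. SLC2A1, which encodes GLUT1, was at 374, 358 and 379 CPM in control, 319, 315 and 353 in the CT83 line, 313, 398 and 395 in the HORMAD1 line, and 352, 352 and 324 in the double line. The 3 CT83 libraries and the 3 double libraries lay below all control libraries, and the HORMAD1 libraries spread on both sides of them. Against control the log2 fold change was -0.17 in the CT83 line (SE 0.09, 95% interval -0.37 to 0.03) and -0.11 in the double line (SE 0.09, 95% interval -0.31 to 0.09), and neither passed edgeR's quasi-likelihood test (Benjamini-Hochberg adjusted p = 0.984 and 0.91). SLC2A3, the high-affinity transporter GLUT3, was at 4.59 to 8.47 CPM, and its share of the summed per-kilobase level of both transporters was 1.20 to 2.46%.

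Hexokinase traps glucose as glucose 6-phosphate. HK2, the inducible isozyme, was at 100.1, 108 and 102 CPM in control, 90.4, 82.0 and 115 in the CT83 line, 79.0, 124 and 107 in the HORMAD1 line, and 81.6, 92.6 and 88.8 in the double line. The double libraries were all below the control libraries, and those of the CT83 and HORMAD1 lines spread over a wider range than either. In the double line HK2 had a log2 fold change of -0.24 (SE 0.15, 95% interval -0.55 to 0.08) against control and of -0.24 (SE 0.15, 95% interval -0.55 to 0.08) against the HORMAD1 line, with adjusted p of 0.9 and 0.74 in edgeR's quasi-likelihood test. HK1, the isozyme of most tissues, was steadier, at 193 to 221 CPM. HK2 made up 18.8 to 27.7% of the summed per-kilobase level of HK1 and HK2, and 27.0 to 38.1% without division by length.

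The upper part of the chain showed little spread. GPI, which turns glucose 6-phosphate into fructose 6-phosphate, was at 268, 241 and 238 CPM in control, 229.8, 241 and 235 in the CT83 line, 231, 227 and 239 in the HORMAD1 line, and 218, 234 and 215 in the double line. Each double library was below each control library, by a narrow margin, and the CT83 and HORMAD1 libraries overlapped control. The log2 fold change of the double line was -0.16 (SE 0.07, 95% interval -0.32 to -0.01, edgeR adjusted p = 0.871). Of the 3 subunits of phosphofructokinase, the enzyme that commits sugar to glycolysis, the platelet type PFKP was at 387, 398 and 376 CPM in control, 389, 381 and 391 in the CT83 line, 386, 363 and 361 in the HORMAD1 line, and 378, 375 and 345 in the double line. Those libraries overlapped in every comparison except that of the double with the CT83 line, where all double libraries were lower. PFKL, the liver type, was at 113, 115 and 115 CPM in control, 122, 114 and 118 in the CT83 line, 131, 108 and 113 in the HORMAD1 line, and 103, 104 and 105 in the double line. Its 3 double libraries were close together and below every library of the other 3 lines. The difference of the double line in PFKL was -0.18 against the CT83 line (SE 0.08, 95% interval -0.35 to -0.01) and -0.18 against the HORMAD1 line (SE 0.08, 95% interval -0.35 to -0.01) on the log2 scale, with edgeR adjusted p of 0.585 and 0.65. PFKM, the muscle type, was at 88.9 to 109 CPM. Per kilobase, PFKP made up 65.1 to 68.0% of the 3 subunits, PFKL 16.9 to 20.2% and PFKM 13.2 to 15.9%.

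PFKFB3 and PFKFB4 make fructose 2,6-bisphosphate, the activator of phosphofructokinase. PFKFB3 was at 53.8, 54.8 and 57.6 CPM in control, 52.8, 47.5 and 60.1 in the CT83 line, 61.6, 56.7 and 56.0 in the HORMAD1 line, and 47.8, 57.8 and 64.7 in the double line, and the libraries of all lines overlapped. PFKFB4 was far lower, at 4.65 to 9.31 CPM. TPI1, which interconverts the triose phosphates, ranged from 985 to 1212 CPM with overlap in all 5 pairwise comparisons.

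GAPDH, which oxidises glyceraldehyde 3-phosphate, was the most abundant member. Its level was 4797, 4224 and 4547 CPM in control, 4616, 4418 and 4181 in the CT83 line, 3900.2, 4493 and 4646 in the HORMAD1 line, and 4929.6, 4819 and 4143 in the double line. Libraries of all lines overlapped, and against control the log2 fold changes were -0.04, -0.06 and 0.03 in the order CT83, HORMAD1, double line (SE 0.10 each). An unnamed antisense entry, ENSG00000269968, lies opposite the end of GAPDH and held 44.4 to 48.4% as many counts as GAPDH itself, at 1834 to 2282 CPM. Since the use of strand in the counting is not stated, reads of the pair cannot be told apart. PGK1 and PGAM1, the kinase and the mutase of the next steps, ranged over 659 to 843 and 765 to 1015 CPM. ENO1, the main enolase, ranged over 3379 to 4490 CPM, and no pair of lines was without overlap for PGK1, PGAM1 or ENO1.

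PKM, which makes pyruvate and has alternative products that the gene counts do not separate, was at 4438, 4141 and 4647 CPM in control, 4208, 4069.7 and 4006 in the CT83 line, 3621, 4425 and 4458 in the HORMAD1 line, and 4656, 4714 and 4625 in the double line. The double libraries were close together and above all CT83 libraries and all HORMAD1 libraries, while the control libraries overlapped them. The log2 fold change of the double line was 0.19 against the CT83 line (SE 0.09, 95% interval -0.01 to 0.39) and 0.16 against the HORMAD1 line (SE 0.09, 95% interval -0.04 to 0.36), at edgeR adjusted p of 0.585 and 0.723. The interaction, the double line's difference from HORMAD1 minus the CT83 line's difference from control, was 0.27 for PKM (SE 0.13, 95% interval -0.01 to 0.55, edgeR adjusted p = 0.841).

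ENO2, the neuronal enolase and a hypoxia-induced isozyme, showed the opposite order at a very low level. This gene (ENSG00000111674.9, chromosome 12, 6913745 to 6923698, plus strand of GRCh38) was at 5.61, 7.08 and 4.55 CPM in control, 7.46, 7.18 and 7.84 in the CT83 line, 8.97, 6.56 and 6.14 in the HORMAD1 line, and 4.79, 5.35 and 4.43 in the double line. All double libraries lay below all libraries of both single-transgene lines, and all CT83 libraries lay above control. Counts behind these values were 44 to 133 per library. In log2 terms the double line differed by -0.62 from the CT83 line (SE 0.20, 95% interval -1.05 to -0.19, edgeR adjusted p = 0.585) and by -0.58 from the HORMAD1 line (SE 0.20, 95% interval -1.01 to -0.15, edgeR adjusted p = 0.478). The CT83 line differed from control by 0.38 (SE 0.20, 95% interval -0.04 to 0.80, edgeR adjusted p = 0.984). ENO2 had the smallest unadjusted interaction p of all members, with an interaction of -0.96 (SE 0.28, 95% interval -1.56 to -0.36, unadjusted p = 0.00387, edgeR adjusted p = 0.841). It supplied 0.088 to 0.22% of the summed per-kilobase level of ENO1 and ENO2. ENO3, the muscle enolase, is not a member and not in that sum, and was at 445 to 566 CPM.

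LDHA, the lactate dehydrogenase subunit that favours lactate, was at 2980.3, 2661 and 2914 CPM in control, 2821, 2681 and 2418 in the CT83 line, 2362, 3124 and 3166 in the HORMAD1 line, and 3075, 2927 and 2664 in the double line. All lines overlapped, and the spread inside the HORMAD1 line, 2362 to 3166 CPM, covered the whole range of the 12. PDK1, the kinase that keeps pyruvate out of mitochondria, was at 28.0, 28.8 and 28.9 CPM in control, 28.8, 25.8 and 22.3 in the CT83 line, 22.9, 30.1 and 27.4 in the HORMAD1 line, and 29.3, 27.8 and 25.6 in the double line, again with overlap throughout. Its antisense neighbour PDK1-AS1 overlaps 1.82% of the PDK1 transcript and held 1901 to 2990% of its count. The part of PDK1-AS1 reads in the PDK1 values was not tested.

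Lactate leaves the cell through monocarboxylate transporters. SLC16A1 (MCT1; ENSG00000155380.13, chromosome 1, 112911847 to 112957013, minus strand) was at 370.4, 329 and 355 CPM in control, 389, 363 and 379 in the CT83 line, 335, 327 and 328 in the HORMAD1 line, and 476, 416 and 362 in the double line. All double libraries were above all HORMAD1 libraries, which were close together, and double replicate 1 stood well above the rest. The double line's log2 fold change was 0.34 against the HORMAD1 line (SE 0.09, 95% interval 0.14 to 0.54, edgeR adjusted p = 0.277) and 0.25 against control (SE 0.09, 95% interval 0.05 to 0.45, edgeR adjusted p = 0.806), with overlap of 1 control library by the lowest double library. SLC16A3 (MCT4; ENSG00000141526.18, chromosome 17, 82228397 to 82261129, plus strand), the HIF-induced exporter, was at 355, 349 and 326 CPM in control, 389.5, 397 and 434 in the CT83 line, 396, 319 and 309.7 in the HORMAD1 line, and 335, 379 and 372 in the double line. Every CT83 library was above every control and every double library, and HORMAD1 replicate 1 reached into the CT83 range. The CT83 line's log2 fold change against control was 0.25 (SE 0.10, 95% interval 0.04 to 0.45, edgeR adjusted p = 0.984). CSNK1D, which overlaps 9.98% of the SLC16A3 transcript on the other strand, had a log2 fold change of 0.25 in the same comparison, and its part in the SLC16A3 value was not tested. SLC16A3 made up 38.9 to 51.7% of the summed per-kilobase level of the 2 exporters.

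HIF1A, the oxygen-regulated subunit, was at 92.2, 90.5 and 89.8 CPM in control, 101, 78.2 and 82.0 in the CT83 line, 79.8, 86.7 and 92.7 in the HORMAD1 line, and 99.1, 88.5 and 73.5 in the double line. Its lines overlapped in every comparison, and its regulation is known to act mainly on the protein, which was not measured. EGLN3 (ENSG00000129521.15, chromosome 14, 33924231 to 34462774, minus strand), a prolyl hydroxylase that HIF itself induces, was the least abundant tested member, at 5.16, 5.51 and 3.12 CPM in control, 2.83, 2.42 and 3.06 in the CT83 line, 2.36, 5.21 and 4.21 in the HORMAD1 line, and 4.17, 2.81 and 3.22 in the double line. All CT83 libraries lay just below the lowest control library, while the HORMAD1 and double libraries overlapped control. Only 28 to 68 counts per library stood behind these values. The log2 fold change of the CT83 line against control was -0.73 (SE 0.30, 95% interval -1.37 to -0.09, edgeR adjusted p = 0.984), the largest in size of any member in that comparison.

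Among secreted and surface targets of HIF, ANGPTL4 had the smallest unadjusted p of any member in any comparison. It encodes a secreted inhibitor of lipoprotein lipase (ENSG00000167772.12, chromosome 19, 8363289 to 8374373, plus strand). ANGPTL4 was at 48.5, 34.1 and 43.2 CPM in control, 42.8, 35.7 and 52.4 in the CT83 line, 38.2, 35.6 and 30.0 in the HORMAD1 line, and 53.9, 59.9 and 57.0 in the double line. The 3 double libraries lay above the 9 others, the HORMAD1 line held the lowest library, and control, CT83 and HORMAD1 overlapped one another. The double line averaged 56.9 ± 2.97 CPM against 34.6 ± 4.17 in the HORMAD1 line, 43.6 ± 8.38 in the CT83 line and 41.9 ± 7.27 in control (SD, n = 3 each).

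Against the HORMAD1 line the log2 fold change of ANGPTL4 was 0.72 (SE 0.15, 95% interval 0.40 to 1.03, unadjusted p = 2.04e-04, edgeR adjusted p = 0.138). Against control it was 0.44 (SE 0.15, 95% interval 0.13 to 0.75, edgeR adjusted p = 0.797) and against the CT83 line 0.39 (SE 0.15, 95% interval 0.07 to 0.70, edgeR adjusted p = 0.585). These 3 contrasts share the double libraries and are not independent. The HORMAD1 line was at -0.28 against control (SE 0.15, 95% interval -0.59 to 0.04, edgeR adjusted p = 1), and the interaction was 0.66 (SE 0.21, 95% interval 0.22 to 1.11, edgeR adjusted p = 0.841). DESeq2 called the difference between the double and HORMAD1 lines (log2 fold change 0.72, adjusted p = 0.00774), in a comparison where it called 0.388% of genes. The edgeR fit without a low-count filter called it as well (adjusted p = 3.03e-04, with 0.351% of genes called), and limma-voom did not (adjusted p = 0.158). Over leave-one-out fits the edgeR adjusted p ran from 0.0567, without CT83 replicate 3, to 0.40, without HORMAD1 replicate 3.

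**Figure D3:**
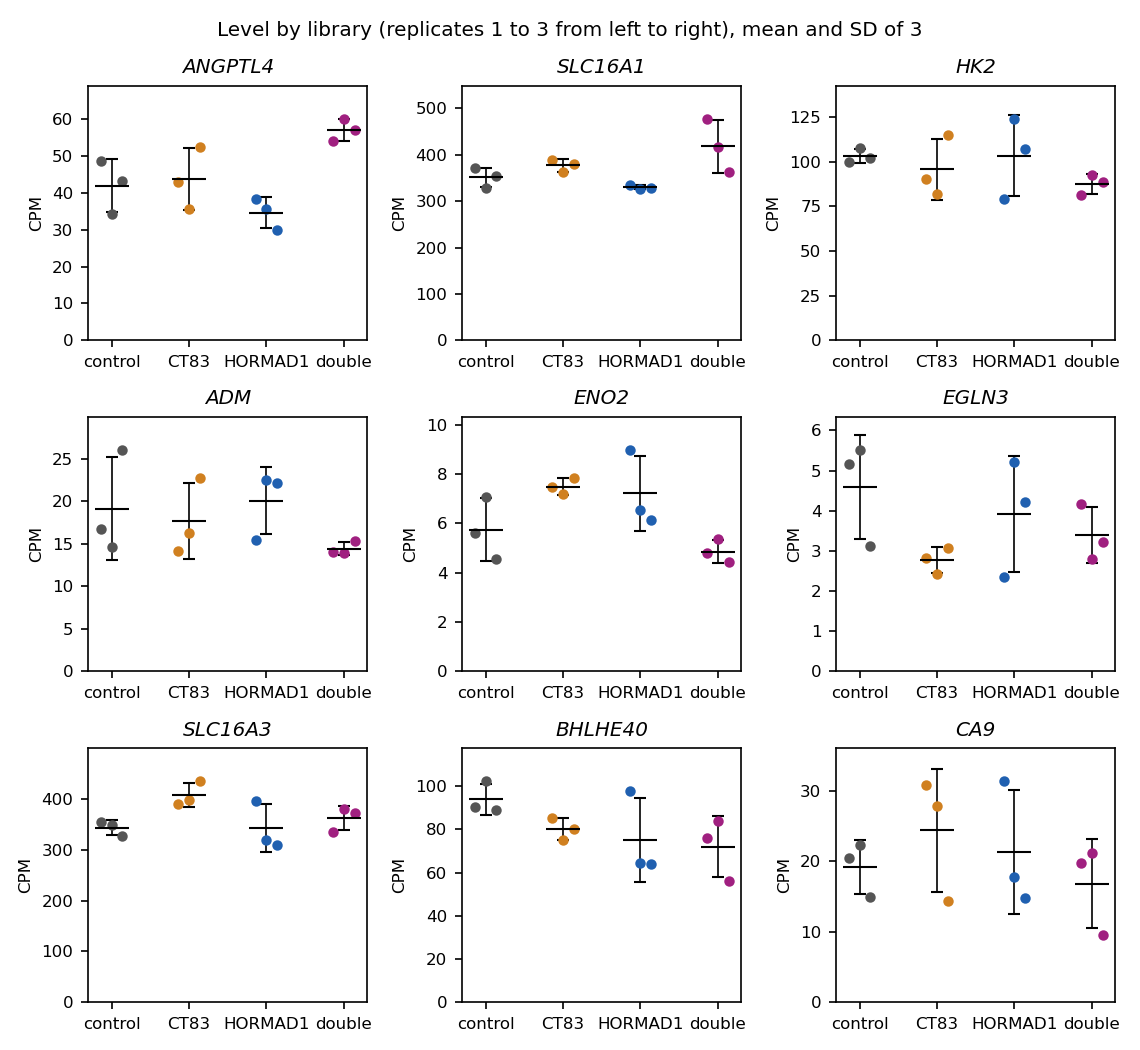
CPM of 9 members in each library, with replicates 1 to 3 from left to right within a line; the horizontal bar is the mean and the error bar 1 SD of 3 libraries, on axes that start at 0. ANGPTL4 in the double line (53.9 to 59.9 CPM) lies above all other libraries, while CA9 and EGLN3 spread widely within lines.

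VEGFA, the main vessel growth factor, was at 74.2, 71.9 and 72.3 CPM in control, 67.2, 61.0 and 90.6 in the CT83 line, 94.3, 80.1 and 86.4 in the HORMAD1 line, and 67.7, 70.3 and 82.3 in the double line. The HORMAD1 libraries were above the control libraries but overlapped those of the CT83 and double lines, 1 of which each lay above the lowest HORMAD1 library. Its log2 fold change in the HORMAD1 line was 0.26 (SE 0.13, 95% interval -0.01 to 0.52, edgeR adjusted p = 1). ADM, which encodes the vasodilator adrenomedullin, ranged from 13.9 to 26.0 CPM, and its double libraries lay below all HORMAD1 libraries. CA9, the carbonic anhydrase widely used as a hypoxia marker, was at 20.5, 22.3 and 14.9 CPM in control, 30.9, 27.8 and 14.4 in the CT83 line, 31.4, 17.7 and 14.8 in the HORMAD1 line, and 19.7, 21.1 and 9.56 in the double line. All lines overlapped, and its biological coefficient of variation of 32.9% was above that of 95.7% of tested genes. The 95% interval of its log2 fold change against control was -0.53 to 1.22 in the CT83 line and -1.08 to 0.70 in the double line, so only large differences could have been detected. ARHGEF39, on the other strand, overlaps 39.7% of the CA9 transcript and held 150 to 374% of its count.

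The matrix group holds genes of collagen modification and oxidative folding. P4HA1, a collagen prolyl hydroxylase subunit, was at 69.5, 60.3 and 65.2 CPM in control, 66.7, 60.3 and 56.0 in the CT83 line, 65.9, 70.4 and 73.7 in the HORMAD1 line, and 65.7, 69.3 and 56.8 in the double line. All lines overlapped for P4HA1. P4HA2, its sister subunit, ranged over 105 to 126 CPM, with all HORMAD1 libraries below control by a narrow margin. ERO1A, the oxidase that renews disulphide bonds, ranged over 143 to 169 CPM, and its double libraries (143 to 148 CPM) lay below all libraries of the other lines. That difference was -0.19 against the HORMAD1 line on the log2 scale (SE 0.07, 95% interval -0.34 to -0.04, edgeR adjusted p = 0.523). LOX, which cross-links collagen, ranged over 8.70 to 16.3 CPM, with all double libraries above control. The log2 fold change of LOX in the double line was 0.27 against control (SE 0.19, 95% interval -0.14 to 0.68), 0.41 against the CT83 line (95% interval -0.01 to 0.82) and 0.36 against the HORMAD1 line (95% interval -0.05 to 0.77), at edgeR adjusted p of 0.907, 0.585 and 0.705.

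Of the mitophagy and stress genes, BNIP3, a mitophagy receptor, was at 84.6, 78.3 and 80.5 CPM in control, 82.4, 75.4 and 62.1 in the CT83 line, 67.7, 97.4 and 89.7 in the HORMAD1 line, and 83.9, 84.4 and 64.6 in the double line. It overlapped in all comparisons and was lowest in CT83 replicate 3. BNIP3 has 44 pseudogene entries, whose counts made up 1.54 to 6.62% of the counts of BNIP3 and these entries together. BNIP3L, its paralog, ranged over 20.6 to 34.3 CPM. NDRG1, a stress-induced cytosolic protein, was at 127 to 129 CPM in the HORMAD1 line, above all control libraries and all double libraries (96.8 to 121 CPM). Against the HORMAD1 line, NDRG1 in the double line had a log2 fold change of -0.21 (SE 0.09, 95% interval -0.40 to -0.01, edgeR adjusted p = 0.625).

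The chromatin and transcription group holds the histone demethylase KDM3A, the repressor BHLHE40 and the ankyrin repeat gene ANKRD37. BHLHE40 was at 90.4, 102 and 88.9 CPM in control, 85.2, 75.0 and 80.0 in the CT83 line, 97.6, 64.2 and 63.7 in the HORMAD1 line, and 75.9, 83.7 and 56.2 in the double line. Control libraries were above all CT83 and all double libraries, and HORMAD1 was split, with replicate 1 in the control range and replicates 2 and 3 far below. Against control the log2 fold changes were -0.23, -0.32 and -0.38 in the order CT83, HORMAD1, double line (SE 0.17 each, 95% intervals -0.59 to 0.14, -0.68 to 0.05 and -0.75 to -0.02). The edgeR adjusted p of these 3 was 0.984, 1 and 0.871. KDM3A ranged over 19.1 to 26.2 CPM, with double libraries of 19.1 to 19.6 CPM below all control and all HORMAD1 libraries. ANKRD37 ranged over 7.48 to 13.1 CPM, and UFSP2 on the other strand, which overlaps 37.6% of its transcript, held 238 to 358% of its count.

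ALDOA, ALDOC, LDHB and EGLN1 were listed at or next to 0 and were not tested. ALDOA, the main aldolase (ENSG00000149925.22, chromosome 16, 30064164 to 30070457, plus strand), had 0 counts in 9 libraries and 1, 2 and 1 in CT83 replicate 3, HORMAD1 replicate 3 and double replicate 3. ALDOC, the brain aldolase (chromosome 17, 28573115 to 28577264, minus strand), and LDHB, the heart lactate dehydrogenase subunit (chromosome 12, 21635342 to 21757857, minus strand), had 0 in all 12. EGLN1, the main prolyl hydroxylase (chromosome 1, 231363751 to 231425044, minus strand), had 1 count in control replicate 2 and double replicate 2 and 0 elsewhere. A count of 0 allows at most 0.202 to 0.302 CPM in a library (3 counts, counting error only).

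Whether these zeros mean absent transcripts was not tested, and they are not read so here. Another coding entry on the same strand, ENSG00000285043, overlaps 82.6% of the ALDOA transcript and had 7 to 21 counts, and ENSG00000285854 overlaps 64.6% of the LDHB transcript and had at most 4. ALDOC lies inside the span of ENSG00000258472 (chromosome 17, 28455752 to 28614197, 733 to 1107 counts), and UNC119, PIGS and SPAG5 in that span were at 0 too. No exon of that entry was found to overlap the principal transcript of ALDOC. On the other strand, ENSG00000265168 overlaps 14.9% of the ALDOC transcript and had 69 to 219 counts. ENSG00000274904 overlaps 18.0% of the ALDOA transcript on the other strand and had 71 to 109 counts. SDHA, a mitochondrial enzyme subunit, was also at 0 in all libraries. Of 189 coding entries covered at least 90% by another coding entry on their strand, 147 (77.8%) had at most 2 counts in every library, against 983 of 1840 (53.4%) partly covered and 4648 of 17825 (26.1%) uncovered ones. ALDOA and LDHB fall in the partly covered class and ALDOC in the uncovered one, and the part of other entries in their zeros was not tested. For EGLN1 no exon overlap with its principal transcript was found among the 58339 of 61533 entries in GENCODE 29, the only ones searched. The shares of ALDOC among aldolases and LDHB among lactate dehydrogenases were therefore not computed. Pseudogene entries held few counts: 158 entries belong to 18 members, and 31 of them had any count. Summed over entries, those of PGAM1 and TPI1 held 149 to 399 and 145 to 251 counts in a library, against 16 to 46 for BNIP3. They made up 1.35 to 3.40% and 1.18 to 1.66% of the counts of gene and pseudogenes together.

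**Figure D4:**
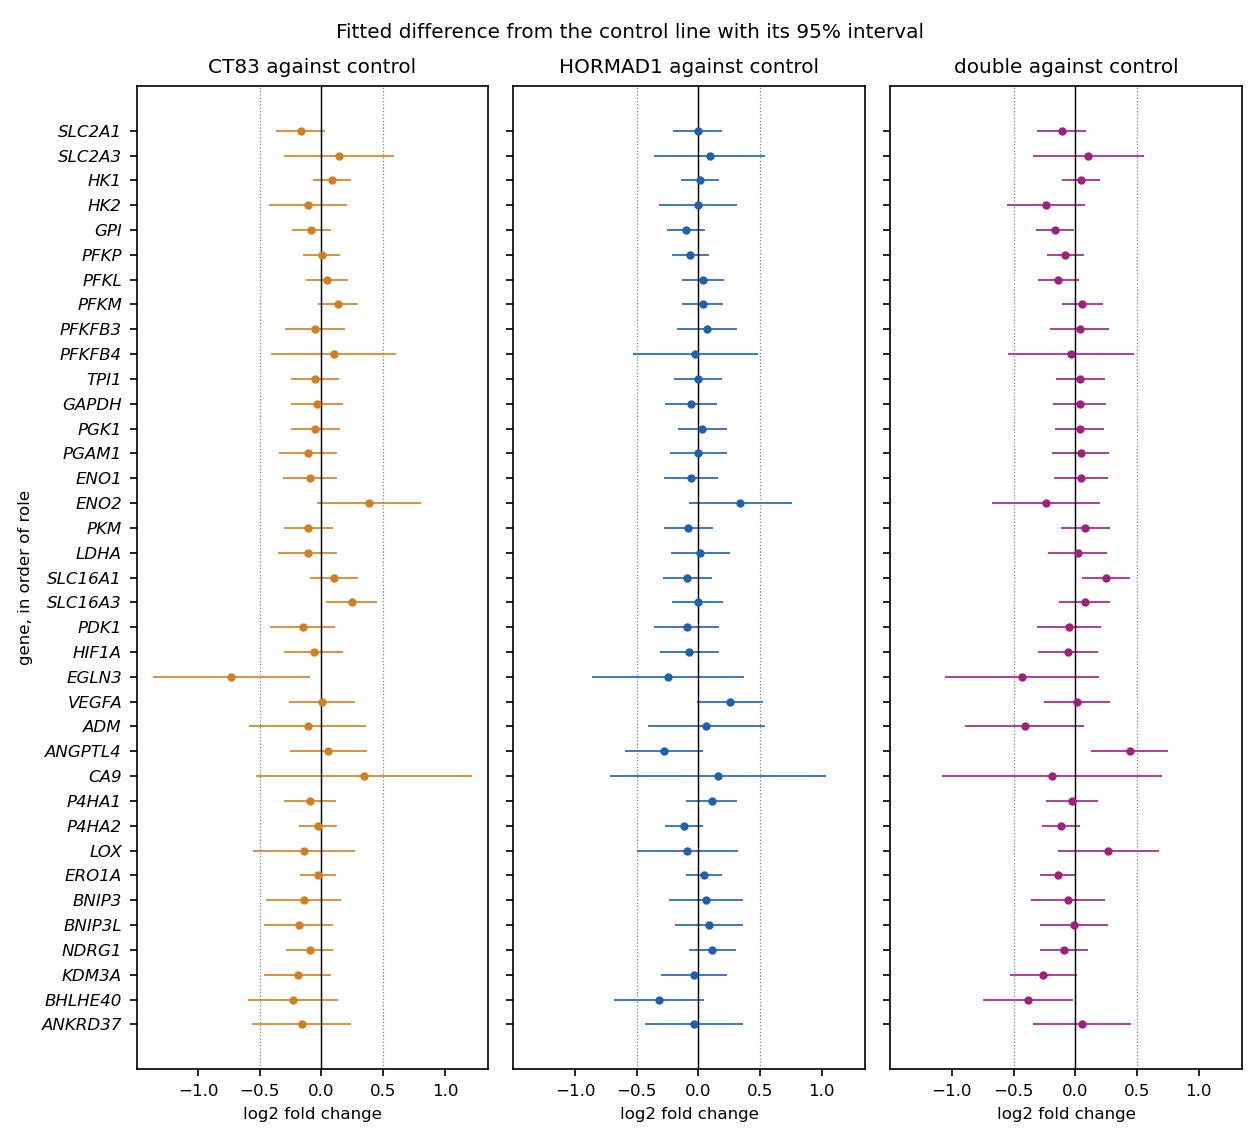
Fitted log2 fold change of each tested member against control, in 1 panel each for the CT83, HORMAD1 and double lines, with its 95% interval; dotted lines mark 0.5 on either side of 0. Most intervals cross 0 and lie inside the dotted lines, and CA9 and EGLN3 have the widest.

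In the CT83 line against control, 0 of 37 tested members were called by edgeR's quasi-likelihood test at an adjusted p under 0.05, where 0.0064% of all tested genes were. At an unadjusted p under 0.05 there were 2 members, SLC16A3 (higher) and EGLN3 (lower), against 2.74% of all genes. Libraries of the 2 lines did not overlap for 7 members (10.5% of all genes), with PFKM, ENO2 and SLC16A3 higher and SLC2A1, EGLN3, BHLHE40 and ANKRD37 lower. The median log2 fold change of the members was -0.06, with 25 of 37 below 0, against 0.01 and 48.4% over all genes. By role, values below 0 numbered 1 of 2 for glucose uptake, 1 of 2 for hexokinases, 3 of 7 for upper and 5 of 6 for lower glycolysis, 2 of 4 for lactate and pyruvate, 2 of 2 for oxygen sensing, 1 of 4 for secreted and surface targets, 4 of 4 for the matrix group, 3 of 3 for mitophagy and stress and 3 of 3 for chromatin and transcription. The 95% interval stayed within 0.5 of 0 for 28 members (56.3% of all genes).

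In the HORMAD1 line against control, 0 of 37 were called (0.0064% of all genes) and 0 had an unadjusted p under 0.05 (1.82%). Libraries did not overlap for 3 members, VEGFA and NDRG1 higher and P4HA2 lower (7.56%). The smallest unadjusted p were those of VEGFA, ANGPTL4 and BHLHE40, at 0.0583, 0.0796 and 0.0833. Members below 0 numbered 21 (48% of all genes), and 27 had a 95% interval within 0.5 of 0 (58.4%).

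In the double line against control, 0 of 37 were called (0.0256%) and 4 had an unadjusted p under 0.05 (5.56%), ANGPTL4 and SLC16A1 higher and GPI and BHLHE40 lower. There was no overlap for 9 members, 2 higher and 7 lower (15.4%). The 2 higher were ANGPTL4 and LOX, and the 7 lower were SLC2A1, HK2, GPI, PFKL, ERO1A, KDM3A and BHLHE40. The members' median was -0.02, with 20 below 0 (50.3%), and 26 had an interval within 0.5 of 0 (53.8%). The lower glycolytic enzymes other than ENO2 had values between 0.03 and 0.08, and all of their intervals crossed 0. The 3 comparisons against control share the control libraries.

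In the double line against the CT83 line, 0 of 37 were called (0.0064%) and 3 had an unadjusted p under 0.05 (8.05%), ANGPTL4 higher and ENO2 and PFKL lower. Here 8 members did not overlap, ANGPTL4 and PKM higher and PFKP, PFKL, PFKM, ENO2, SLC16A3 and ERO1A lower (17.9%). Against the HORMAD1 line, 0 of 37 were called (0.0448%) and 6 had an unadjusted p under 0.05 (7.59%), ANGPTL4 and SLC16A1 higher and PFKL, ENO2, ERO1A and NDRG1 lower. The members without overlap numbered 9, these 6 with PKM higher and ADM and KDM3A lower (12.2%). Median log2 fold changes of the members were 0.01 and -0.01, with 16 and 19 members below 0 (50.2 and 51.9% of all genes). Intervals lay within 0.5 of 0 for 28 and 27 members (51.9 and 52.5%).

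For the interaction, 0 of 37 members were called (0%) and 2 had an unadjusted p under 0.05 (4.5%), ENO2 and ANGPTL4, with opposite signs. The interaction was below 0 for 16 members (51.5%), and its interval lay within 0.5 of 0 for 21 (32.3%). For the mean of both lines with CT83 against both without it, 0 were called (0.032%) and 7 had an unadjusted p under 0.05 (6.21%). ANGPTL4, SLC16A1 and SLC16A3 were the 3 higher, with log2 differences of 0.39, 0.22 and 0.16 (SE 0.10, 0.07 and 0.07), and EGLN3, ERO1A, NDRG1 and KDM3A the 4 lower, with -0.46, -0.11, -0.15 and -0.21 (SE 0.21, 0.05, 0.06 and 0.09). The smallest adjusted p among these 7 was 0.355, for ANGPTL4. This difference was below 0 for 26 members (50.3%), and its interval lay within 0.5 of 0 for 33 (71.1%). For the mean of both lines with HORMAD1, 0 were called (0.0064%) and 0 had an unadjusted p under 0.05 (3.73%), while 16 were below 0 (49.2%) and 36 had an interval within 0.5 of 0 (70.7%). In the test of any difference among the 4 lines, 0 were called (0.0448%) and ANGPTL4, SLC16A1 and ENO2 had an unadjusted p under 0.05 (4.83%). The limma-voom fit called 0 members in all 9 comparisons. Its share of all genes called is not given here, so that 0 is not read as particular to the members. DESeq2 called ANGPTL4 in the double line against HORMAD1 and 0 members in the other 8 comparisons. The share of all genes that DESeq2 called in those 8 was 0.0064% for CT83, 0.0128% for HORMAD1 and 0.032% for the double line against control, 0.0192% for the double against the CT83 line and for the interaction, 0.236% and 0.0064% for the means over lines with CT83 and with HORMAD1, and 0.134% for any difference. Without a low-count filter, edgeR called ANGPTL4 also for the mean of both lines with CT83 (0.38, SE 0.09, adjusted p = 0.0248, with 0.213% of genes called) and for any difference (adjusted p = 0.0033, with 0.209% called). It called 0 members in the other comparisons, where 0% of genes were called for CT83 against control and for the double against the CT83 line, 0.00354% for HORMAD1 against control and over both lines with HORMAD1, 0.0425% for the double line against control and 0.00709% for the interaction.

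These p-values do not show that the lines have equal levels: the median SE of a member's log2 fold change was 0.11 against control, and the intervals give the sizes that the data allow.

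The abundant enzymes moved together between libraries of the same line. GAPDH, ENO1, PKM, LDHA, TPI1, PGAM1 and PGK1, the 7 members highest per kilobase, were all at their lowest in control replicate 2, in CT83 replicate 3, in HORMAD1 replicate 1 and in double replicate 3. Of all tested genes, 39.1, 40.6, 42.1 and 35.1% were lowest in those libraries. The 4 libraries were also the ones in which levels went up most with transcript length, by 0.03, 0.04, 0.05 and 0.03 log2 CPM per doubling of length relative to the mean of their line over 15333 genes. Among all 37 tested members, 17 were lowest and 14 highest in control replicate 2, 17 and 13 in CT83 replicate 3, 17 and 17 in HORMAD1 replicate 1, and 22 and 5 in double replicate 3. The shares of all tested genes that were highest in these libraries were 37.4, 41.1, 42.9 and 35.4%, in the same order. The part of transcript length in these shared movements was not tested. A fit of the line differences with a length and GC offset is among the alternatives below. With that offset, ANGPTL4 in the double against the HORMAD1 line had a log2 fold change of 0.77 (edgeR adjusted p = 0.0785).

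**Figure D5:**
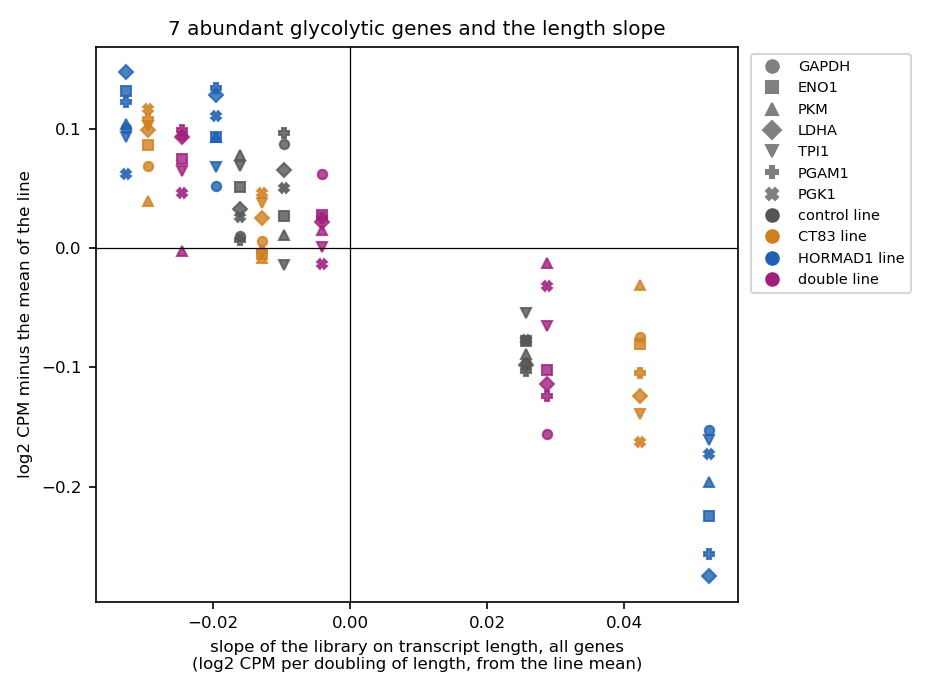
Levels of the 7 abundant glycolytic genes in the 12 libraries, as log2 CPM minus the mean of the line (vertical), against the slope of that library on transcript length over all genes, from the mean of the line (horizontal); colours are lines and shapes are genes. In each line the library with the steepest slope lies at the right, and all 7 genes are below 0 there.

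Without control replicate 2, CT83 replicate 3 and HORMAD1 replicate 1, the 3 libraries with the steepest slopes over the 12, edgeR called 4 members in the double line against the HORMAD1 line (2.16% of all genes). They were ANGPTL4 with a log2 fold change of 0.80 (SE 0.11, adjusted p = 1.00e-04), SLC16A1 with 0.35 (SE 0.09, adjusted p = 0.0497), HK2 with -0.40 (SE 0.08, adjusted p = 0.00534) and ADM with -0.64 (SE 0.15, adjusted p = 0.0288). In the same fit ANGPTL4 was called against the CT83 line (0.54, SE 0.10, adjusted p = 0.016, with 0.466% of genes called) and in the interaction (1.02, SE 0.15, adjusted p = 0.00323, with 0.14% called). For the mean of both lines with CT83, 5 members were called (4.86%), ANGPTL4 at 0.29 and SLC16A3 at 0.20 higher, and SLC2A1 at -0.23, HK2 at -0.31 and ADM at -0.56 lower. The same 5 were called for any difference among the lines (3.82%). Against control, 0 members were called in any line without the 3 libraries. The shares of all genes called there were 0.76% for the CT83, 0.0383% for the HORMAD1 and 0.083% for the double line. This fit leaves 2 libraries in 3 of the lines, and the 3 libraries were picked with earlier results of these data known.

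Of 104 further genes of glycolysis and its branches, oxygen sensing and the hypoxia response, 85 were tested and 0 were called by edgeR in any comparison. At an unadjusted p under 0.05 there were 2 in the CT83 line, 3 in the HORMAD1 line and 5 in the double line against control (2.74, 1.82 and 5.56% of all genes). Of the further genes that were not tested, HK3, TIGAR, EGLN2, MIF and HILPDA had 0 counts in every library, and the cause was not tested. INSIG2, a brake on sterol synthesis, had 22.8, 21.2 and 21.1 CPM in control and 17.3, 18.8 and 19.0 in the CT83 line, a log2 fold change of -0.24 (SE 0.11). SLC6A8, the creatine transporter, had a log2 fold change of 0.22 (SE 0.10) in that line. CA12, a carbonic anhydrase like CA9, had 30.3, 24.8 and 27.5 CPM in control and 22.0, 22.5 and 19.1 in the HORMAD1 line, without overlap and with a log2 fold change of -0.38 (SE 0.12, unadjusted p = 0.00529, edgeR adjusted p = 1). SLC2A12, another glucose transporter, had 0.51 (SE 0.19) in the HORMAD1 line. PHGDH, which diverts 3-phosphoglycerate to serine, had 226, 194 and 237 CPM in control and 318, 275 and 301 in the double line, a log2 fold change of 0.45 (SE 0.14, edgeR adjusted p = 0.797). GPRC5A, a hypoxia-induced membrane receptor, had -0.44 (SE 0.17, edgeR adjusted p = 0.846) in the double line.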

How the data were processed

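RNA from 12 libraries of 4 HMLE-derived lines was analysed, grouped by the labels. The values the authors deposited are expected counts, which are estimates and may be fractional, for 61533 gene entries. The tools named, per the submitters' processing notes, are SAMtools, Picard, STAR 2.7.5c and Trimmomatic 0.39, with the builds hg19 and hg38 and no roles. How reads were counted, with which annotation and strand setting, is not given in the sources used here. Coordinates and lengths come from GENCODE 29 (GRCh38) and start-site windows from RefSeq (GRCh38.p14).

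Expected counts were rounded, filtered with filterByExpr (minimum count 10) and fitted with the quasi-likelihood test of edgeR 4.0.16 in R 4.3.3, with TMM scaling and a mean for each line, which left 8 residual degrees of freedom. The design had assumed raw counts. A gene was called where its p, adjusted by Benjamini-Hochberg over all 15616 tested genes, was under 0.05 in each of 9 comparisons. The steps were tested on simulated data. A floor of 3 counts was used, and intervals and floors cover counting error only where no replicates enter. Alternatives were other scalings and filters, DESeq2 1.42.0, limma-voom (limma 3.58.1), a replicate block, a length and GC offset, only the groups compared, and leaving out libraries. Lengths from the union of exons were chosen after seeing the data.

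The members and gene lists were chosen with earlier results of these data known. All members are named; values of all libraries are given for 16 that stand for the roles, for untested members, and for the 3 with the smallest unadjusted p in each pairwise comparison and the interaction. Of the other pathway genes, the 2 with the smallest p in each comparison against control are named.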

Additional observations from a re-analysis of the deposited data

How the results depend on the processing

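Over 23 alternative settings, 12 of which left out 1 library, members were called only as follows, and the cause was not tested. Without the 3 libraries steepest in transcript length, 1 was called in the double against the CT83 line (0.466% of all genes), 4 in the double against the HORMAD1 line (2.16%), 1 in the interaction (0.14%), 5 for CT83 over both backgrounds (4.86%) and 5 for any difference (3.82%). With no low-count filter 1 was called in the double against the HORMAD1 line (0.351%), 1 for CT83 over both backgrounds (0.213%) and 1 for any difference (0.209%), and DESeq2 called 1 in the double against the HORMAD1 line (0.388%). Leaving out single libraries called 0.

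The members' median log2 fold change lay near 0 and changed sign or moved in some settings. With the length and GC offset it was 0.0096 in the double line against control, 0.051 against CT83, 0.032 against HORMAD1 and 0.061 in the interaction. It was -0.043 in the double against the HORMAD1 line without the 3 libraries and -0.024 in the interaction with library size alone. Leaving out single libraries gave -0.053 to 0.042, 0.0033 to 0.089 and -0.049 to 0.018 for the double line against control, CT83 and HORMAD1, and -0.016 to 0.039 for HORMAD1 over both backgrounds. Of 4255 member fold changes, 257 changed sign, the largest from a main size of 0.35.

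Genes called over the whole table, with 1 library left out and then in the other settings, numbered 0 to 1 and 0 to 119 for CT83, 1 to 2 and 0 to 6 for HORMAD1, and 1 to 5 and 2 to 13 for the double line, all against control. They numbered 1 to 2 and 0 to 73 for double against CT83, 0 to 39 and 1 to 339 for double against HORMAD1, and 0 and 0 to 22 for the interaction. They numbered 0 to 97 and 3 to 761 for CT83 over both backgrounds, 1 to 2 and 1 to 5 for HORMAD1 over both backgrounds, and 1 to 23 and 2 to 599 for any difference. The highest of these leave-one-out counts for double against HORMAD1, CT83 over both backgrounds and any difference came without HORMAD1 replicate 1.

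Deviations of same-numbered libraries from their line means correlated at -0.354 to 0.351, with 6 of 18 over 0.1. Libraries with different numbers were not compared in this way, so whether replicate numbers pair the libraries was not settled. With the replicate block 0 members were called in any comparison, and the share of all genes called with it is not given here. Counts of 28 to 68 limit EGLN3 and 44 to 133 limit ENO2.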
